A study of Homo sapiens with 10 samples.

Results

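The centromere, kinetochore and checkpoint genes described here are 37 of the 20030 entries of a table of expression values from human liver cancer cell lines. They were chosen by name, with earlier results of these data known. The set holds CENP genes, factors that load CENP-A, the outer kinetochore complexes and the spindle checkpoint. The values come from RNA sequencing of 10 libraries, 1 for each combination of cell line and treatment. The lines PLC and 97H were treated with a CDK4/6 inhibitor and an XPO1 inhibitor together (combination, 2 libraries), with the XPO1 inhibitor alone (2 libraries, named KPT330 in the titles), with the CDK4/6 inhibitor alone, or with vehicle (control). The line Huh7 had only the CDK4/6 inhibitor and the control, so these groups hold 3 libraries each. CDK4 and CDK6, partners of cyclin D, phosphorylate the retinoblastoma protein, and XPO1 exports proteins and RNAs from the nucleus. The name of the CDK4/6 inhibitor, the doses, the times and any batch were not given in the sources used here. Each group was therefore a set of different lines and not of repeated cultures of 1 line. The p-values set each difference against the scatter left by the fit after line and treatment, pooled over all its treatments. With 1 library per line and treatment, variation between lines and between cultures cannot be separated in that scatter.

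Levels are in FPKM, a fragment count corrected for the length of the gene and the size of the library, so that levels can be compared between genes. Differences are on the scale log2(FPKM + 1), on which the pseudocount of 1 understates the change of genes near or below 1 FPKM. Of the 37 genes, 32 averaged 1 FPKM or more across all 10 libraries and were tested among the 10477 genes that passed that filter. CENPE, CENPF, CENPK, CENPP and NSL1 lay below it, with means of 0.333, 0.848, 0.448, 0.658 and 0.769 FPKM, and were not tested. An adjusted p (Benjamini-Hochberg over the 10477 genes) under 0.05 was called.

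Centromeres are marked by nucleosomes that hold the histone H3 variant CENP-A, placed there after mitosis by the chaperone HJURP with the help of the Mis18 proteins. On that chromatin stands the constitutive centromere network of CENP proteins, and in mitosis the MIS12 and NDC80 complexes are built on it and bind spindle microtubules, with the SKA complex strengthening the attachment. Kinetochores without microtubules recruit the kinases BUB1 and TTK, BUB1B, BUB3 and MAD2L1, which hold back anaphase. Many of these genes are transcribed mainly in G2 and mitosis, through the CHR and CCAAT elements of their promoters, and others in late G1 and S phase through E2F sites.

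Promoters are shown for the genes with the smallest p under the combination against control and, after them, for 2 genes whose difference was among the smallest. Each run covers 150 bases before and 30 bases from the annotated start, on the strand of the gene (RefSeq, GRCh38.p14). Capitals mark 4 motifs read on either strand, with TTTGAA for the CHR, CCAAT for the box of that name, and TTCCCGC or TTGGCGC for E2F sites. CENPA is shown at chr2:26785906-26786085 (plus strand), OIP5 at chr15:41332562-41332741 (minus strand), SPC24 at chr19:11155753-11155932 (minus strand), ZWINT at chr10:56361230-56361409 (minus strand), SKA3 at chr13:21176523-21176702 (minus strand), SPC25 at chr2:168890401-168890580 (minus strand), MIS12 at chr17:5486224-5486403 (plus strand) and DSN1 at chr20:36773734-36773913 (minus strand).
CENPA: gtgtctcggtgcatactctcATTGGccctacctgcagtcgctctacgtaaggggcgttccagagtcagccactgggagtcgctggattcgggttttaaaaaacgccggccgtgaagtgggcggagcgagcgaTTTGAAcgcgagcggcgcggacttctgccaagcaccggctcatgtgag
OIP5: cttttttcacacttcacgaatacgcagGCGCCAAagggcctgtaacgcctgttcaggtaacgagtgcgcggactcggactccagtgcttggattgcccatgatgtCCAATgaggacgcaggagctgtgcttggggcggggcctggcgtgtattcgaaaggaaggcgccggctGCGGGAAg
SPC24: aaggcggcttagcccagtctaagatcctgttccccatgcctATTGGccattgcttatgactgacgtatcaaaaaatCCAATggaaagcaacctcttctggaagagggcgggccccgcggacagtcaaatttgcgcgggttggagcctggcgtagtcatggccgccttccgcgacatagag
ZWINT: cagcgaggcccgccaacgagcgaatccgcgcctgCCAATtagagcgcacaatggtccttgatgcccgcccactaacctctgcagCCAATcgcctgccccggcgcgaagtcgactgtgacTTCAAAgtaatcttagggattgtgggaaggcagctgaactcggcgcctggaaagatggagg
SKA3: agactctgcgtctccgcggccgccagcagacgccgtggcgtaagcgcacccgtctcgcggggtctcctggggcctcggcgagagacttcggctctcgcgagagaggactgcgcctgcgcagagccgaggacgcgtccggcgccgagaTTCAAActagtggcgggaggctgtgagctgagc
SPC25: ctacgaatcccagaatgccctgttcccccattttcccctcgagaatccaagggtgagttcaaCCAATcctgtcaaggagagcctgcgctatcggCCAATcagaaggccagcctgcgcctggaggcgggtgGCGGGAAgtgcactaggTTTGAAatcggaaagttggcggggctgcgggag
MIS12: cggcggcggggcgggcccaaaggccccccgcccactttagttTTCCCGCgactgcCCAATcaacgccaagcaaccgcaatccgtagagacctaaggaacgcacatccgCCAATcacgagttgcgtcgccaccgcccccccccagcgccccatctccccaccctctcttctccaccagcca
DSN1: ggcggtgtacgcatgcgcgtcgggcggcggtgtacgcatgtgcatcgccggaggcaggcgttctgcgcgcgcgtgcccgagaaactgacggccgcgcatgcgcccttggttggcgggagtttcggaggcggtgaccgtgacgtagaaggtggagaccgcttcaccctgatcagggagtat

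The CENPA, ZWINT and SPC25 runs hold both TTTGAA and a CCAAT box, and the SKA3 run TTTGAA alone. The OIP5, SPC24 and MIS12 runs hold CCAAT boxes without TTTGAA, the only form of the CHR that was searched. E2F sites stand in the OIP5, SPC25 and MIS12 runs, and the DSN1 run holds none of the 4 motifs. RefSeq promoter windows of 300 bases, from 250 before to 50 from the start, were matched for 31 of the 37 genes, with 35 windows in all, since a gene may have several starts. MIS18A, CENPH, CENPL, CENPM, BUB3 and TTK had no entry. Counted on both strands and with overlaps allowed, TTTGAA stood in 14 of the 35 windows (40%), against 15.2% of all 35116 windows and 9.69% of the 11991 windows of tested genes. CCAAT stood in 21 of the 35 (60%), against 34.6% of all windows and 35% of those of tested genes. TTCCCGC stood in 7 (20%), against 6.55% and 9.8%, and TTGGCGC in 5 (14.3%), against 3.04% and 4.75%. A match is a run of letters and not a measured site of binding.

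In the libraries, 14033 to 15264 genes were above 0 FPKM, and the absolute depth is unknown, since FPKM did not give back whole reads. The PLC control had the fewest genes above 0 (14033), with 14214 in the 97H control. The median over genes was 0.772 FPKM with the combination, 0.941 FPKM with the XPO1 inhibitor and 1.09 FPKM with the CDK4/6 inhibitor in PLC, against 0.584 FPKM in the PLC control, and lay between 0.565 and 0.806 FPKM in 97H. Within a line, the differences from control correlated with the GC content of the transcripts over 10448 genes, to a degree that varied. Spearman's rho was -0.28 in PLC and 0.25 in 97H with the combination, -0.71 in PLC and 0.46 in 97H with the XPO1 inhibitor, and -0.67 in PLC, 0.72 in 97H and 0.18 in Huh7 with the CDK4/6 inhibitor, where the differences of a line share its control library. The 37 genes had a median transcript GC content of 42.5% (32.9% in CENPK to 61.4% in CENPM), against 49.6% over the tested genes, so values after removing smooth trends on GC content and length are given where they differ. The liver keratin genes KRT8 and KRT18 were at 785 FPKM or more in all 10 libraries, while the albumin gene ALB reached 1062 and 1261 FPKM in Huh7 and at most 15.8 FPKM in PLC and 97H. Of the 4 leukocyte markers, PTPRC and CD3E were at 0 or at most at 0.035 FPKM in every library. CD68 was at 2.77 to 127 FPKM and LYZ at 0.0987 to 234 FPKM over the 10 libraries.

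With the combination, CENPA fell in both PLC and 97H, and most other genes of the set were lower than in the control without passing the test. CENPA was the only gene of the 32 that was called, where 83 of all 10477 tested genes (0.792%) were called in either direction and 51 (0.487%) as lower. The median difference of the 32 genes was -1.23 on the log2 scale, against 0.07 over all tested genes, and 31 of the 32 were below 0. An unadjusted p under 0.05 with a negative difference was found in 20 of the 32, against 6.07% of all tested genes. Lower than control in both PLC and 97H at once were 25 of the 32, against 24.2% of all tested genes. A fall of at least 1 on the log2 scale in both lines was found in 15 of the 32, against 1.99%. In 21 of the 32 the combination library was the lowest of the 4 libraries of its line in both lines, against 10.5% of all tested genes. In 20 of the 32, both combination libraries lay below both the PLC and the 97H control, against 11.2% of all tested genes. These counts rest on bulk RNA, in which fewer cells in mitosis and less of these RNAs per cell cannot be told apart.

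**Figure D1:**
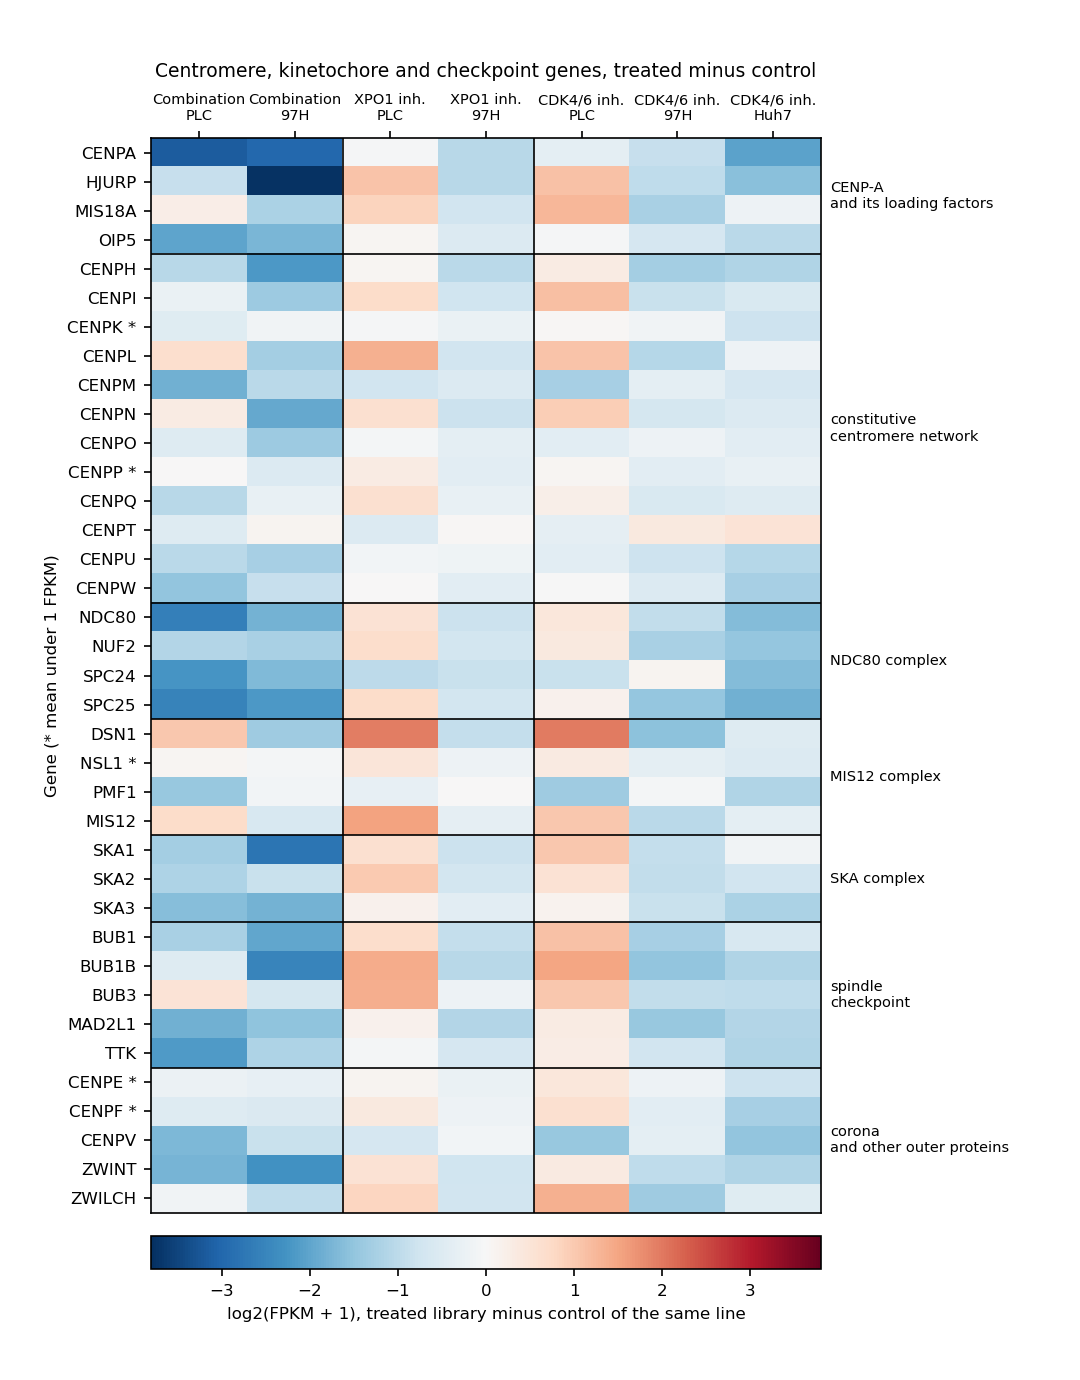
Differences of log2(FPKM + 1) between each treated library and the control of its line, for all 37 genes (rows, by role) in 7 treated libraries (columns); blue is lower and red higher than control, and an asterisk marks a gene below the filter. Both combination columns are mostly blue, while under either inhibitor alone the PLC column is mostly red and the 97H column mostly blue.

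CENPA, the centromeric histone itself, lies at chr2:26764289-26801067 (GRCh38, GENCODE 29). It stood at 0.751 FPKM in PLC and 2.23 FPKM in 97H under the combination, against 14.6 FPKM in PLC, 24.2 FPKM in 97H and 18.6 FPKM in Huh7 in the controls. Both combination libraries lay below every other library, at 5.15% of the control level in PLC and 9.2% in 97H. With the XPO1 inhibitor alone CENPA was at 14.3 FPKM in PLC and 11.3 FPKM in 97H, and with the CDK4/6 inhibitor alone at 11.1 FPKM in PLC, 12.7 FPKM in 97H and 3.78 FPKM in Huh7. The fitted difference of the combination from control was -3.06 on the log2 scale (SE 0.42, adjusted p = 0.0288, lower in 2 of 2 lines). The call was lost without the PLC combination library (-2.71, adjusted p = 0.228), without the PLC control (-3.28, adjusted p = 0.0688) and without the 97H combination library (-3.41, adjusted p = 0.17). It was also lost at the same difference with no filter on low genes (adjusted p = 0.253) and without the pairing by cell line (adjusted p = 0.794). Over all alternatives the adjusted p of CENPA ran between 0.00235 and 0.794, and its difference between -3.75 and -2.71.

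The other factors of CENP-A loading did not pass. OIP5, a subunit of the Mis18 complex, stood at 6.23 FPKM in PLC and 3.27 FPKM in 97H under the combination, against 27.7 FPKM in PLC, 13.2 FPKM in 97H and 26.9 FPKM in Huh7 in the controls. Both combination libraries lay below all other libraries, where the XPO1 inhibitor gave 29.3 FPKM in PLC and 8.9 FPKM in 97H and the CDK4/6 inhibitor 26.7 FPKM in PLC, 8.11 FPKM in 97H and 12.8 FPKM in Huh7. Its fitted difference was -1.86 (SE 0.37, adjusted p = 0.0738). HJURP, the CENP-A chaperone, differed between the lines, at 2.27 FPKM with the combination against 4.96 FPKM in the control in PLC, and 5.03 FPKM against 80.9 FPKM in 97H. MIS18A, the partner of OIP5, was at 4.27 FPKM against 3.41 FPKM in PLC and 2.74 FPKM against 7.58 FPKM in 97H, higher in 1 line and lower in the other.

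All 4 genes of the NDC80 complex, which binds the microtubule, were lower in both lines, with a median difference of -2.07, and none was called. SPC24 stood at 1.01 FPKM in PLC and 0.789 FPKM in 97H under the combination, against 8.43 FPKM in PLC, 4.7 FPKM in 97H and 11.8 FPKM in Huh7 in the controls. The XPO1 inhibitor gave 3.75 FPKM in PLC and 2.17 FPKM in 97H, and the CDK4/6 inhibitor 4.23 FPKM in PLC, 5.16 FPKM in 97H and 3.1 FPKM in Huh7, all above both combination libraries. The fitted difference of SPC24 was -1.95 (SE 0.40, adjusted p = 0.0778). SPC25, its partner at the end of the complex that faces the centromere, stood at 0.496 FPKM in PLC and 1.39 FPKM in 97H, against 7.61 FPKM in PLC, 9.83 FPKM in 97H and 16.8 FPKM in Huh7 in the controls. The combination libraries were again the lowest, with 12.9 FPKM in PLC and 5.66 FPKM in 97H under the XPO1 inhibitor and 8.64 FPKM in PLC, 2.88 FPKM in 97H and 4.01 FPKM in Huh7 under the CDK4/6 inhibitor. Its difference was -2.35 (SE 0.55, adjusted p = 0.119). NDC80 and NUF2, which carry the microtubule-binding heads, differed by -2.20 (SE 0.57) and -1.17 (SE 0.45).

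The SKA complex and the checkpoint genes had median differences of -1.72 and -1.59. SKA3 stood at 1.25 FPKM in PLC and 0.563 FPKM in 97H under the combination, against 5.99 FPKM in PLC, 4.42 FPKM in 97H and 10.9 FPKM in Huh7 in the controls. Its levels under a single inhibitor did not reach down to these, with 6.76 FPKM in PLC and 3.09 FPKM in 97H for the XPO1 inhibitor and 6.59 FPKM in PLC, 1.99 FPKM in 97H and 4.18 FPKM in Huh7 for the CDK4/6 inhibitor. The difference of SKA3 was -1.72 (SE 0.40, adjusted p = 0.116), beside -2.03 (SE 0.51) for SKA1 and -1.01 (SE 0.55) for SKA2. ZWINT, which links the outer kinetochore to the Rod-Zwilch-ZW10 complex, stood at 3.07 FPKM in PLC and 2.54 FPKM in 97H under the combination, against 12.7 FPKM in PLC, 16.5 FPKM in 97H and 31.2 FPKM in Huh7 in the controls. Both were the lowest values of their line, since the XPO1 inhibitor gave 18.9 FPKM in PLC and 9.21 FPKM in 97H and the CDK4/6 inhibitor 16.2 FPKM in PLC, 8.02 FPKM in 97H and 13.5 FPKM in Huh7. Its difference was -2.03 (SE 0.43, adjusted p = 0.0918). Of the checkpoint genes, MAD2L1, TTK, BUB1 and BUB1B differed by -1.68, -1.65, -1.59 and -1.49, with SEs of 0.50 to 0.64 and no call.

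The constitutive centromere network had a smaller median difference, -0.87 over its 10 tested genes, all below 0 and none called. They ran from -1.61 (SE 0.45) in CENPH, of the group that holds CENP-H, -I, -K and -M, to -0.20 (SE 0.38) in CENPT, which joins the centromere to the NDC80 complex. CENPM, CENPW and CENPU stood at -1.42, -1.18 and -1.15. CENPV, a protein of pericentromeric chromatin and the gene with the highest mean over the 10 libraries in the set (64.2 FPKM), stood at 21.2 FPKM in PLC and 56.5 FPKM in 97H under the combination, against 71.5 FPKM in PLC, 103 FPKM in 97H and 107 FPKM in Huh7 in the controls. Its difference was -1.28 (SE 0.32, adjusted p = 0.145). Among the genes below the filter, the kinesin gene CENPE was at 0.0129 FPKM in PLC and 0.102 FPKM in 97H, against 0.169 FPKM in PLC, 0.359 FPKM in 97H and 1.22 FPKM in Huh7 in the controls. CENPF, a large protein of the outer kinetochore, was at 0.0721 FPKM in PLC and 0.272 FPKM in 97H, against 0.498 FPKM in PLC, 0.852 FPKM in 97H and 2.91 FPKM in Huh7. Both combination libraries were thus the lowest of these genes too, at levels that FPKM cannot resolve without a known depth. CENPK was at 0.0344 FPKM in PLC and 0.315 FPKM in 97H under the combination, against 0.416 FPKM in PLC, 0.447 FPKM in 97H and 1.48 FPKM in Huh7 in the controls. CENPP was at 0.485 FPKM in PLC and 0.284 FPKM in 97H, against 0.486, 0.851 and 1.33 FPKM in the PLC, 97H and Huh7 controls, and NSL1 at 0.685 and 0.662 FPKM, against 0.621, 0.763 and 1.2 FPKM.

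The 3 smallest differences belonged to MIS12, BUB3 and DSN1, and in each the lines went opposite ways. MIS12, which names the complex that joins the centromere network to NDC80, stood at 4.2 FPKM in PLC and 2.46 FPKM in 97H under the combination, against 2.21 FPKM in PLC, 4.29 FPKM in 97H and 3.4 FPKM in Huh7 in the controls. The XPO1 inhibitor gave 8.33 FPKM in PLC and 3.21 FPKM in 97H, and the CDK4/6 inhibitor 5.45 FPKM in PLC, 1.63 FPKM in 97H and 2.43 FPKM in Huh7. Its control was thus the lowest library in PLC and the highest in 97H. BUB3, the checkpoint protein that carries BUB1 and BUB1B to the kinetochore, stood at 23.1 FPKM in PLC and 18.7 FPKM in 97H under the combination, against 15.9 FPKM in PLC, 30.1 FPKM in 97H and 34.6 FPKM in Huh7 in the controls. It reached 42.6 FPKM in PLC and 26.6 FPKM in 97H with the XPO1 inhibitor, and 33.5 FPKM in PLC, 15.3 FPKM in 97H and 17.5 FPKM in Huh7 with the CDK4/6 inhibitor. The PLC control was again the lowest library of its line. DSN1, of the MIS12 complex, stood at 7.95 FPKM in PLC and 5.98 FPKM in 97H under the combination, against 3.37 FPKM in PLC, 16.9 FPKM in 97H and 8.92 FPKM in Huh7 in the controls. The XPO1 inhibitor gave 15.8 FPKM in PLC and 8.57 FPKM in 97H, and the CDK4/6 inhibitor 16 FPKM in PLC, 5.09 FPKM in 97H and 6.05 FPKM in Huh7. The fitted differences were 0.04 (SE 0.52) for MIS12, -0.07 (SE 0.45) for BUB3 and -0.16 (SE 0.72) for DSN1, all smaller than their errors. PMF1, the other tested gene of the complex, differed by -0.76 (SE 0.39). The median of MIS12, DSN1 and PMF1 was -0.16.

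**Figure D2:**
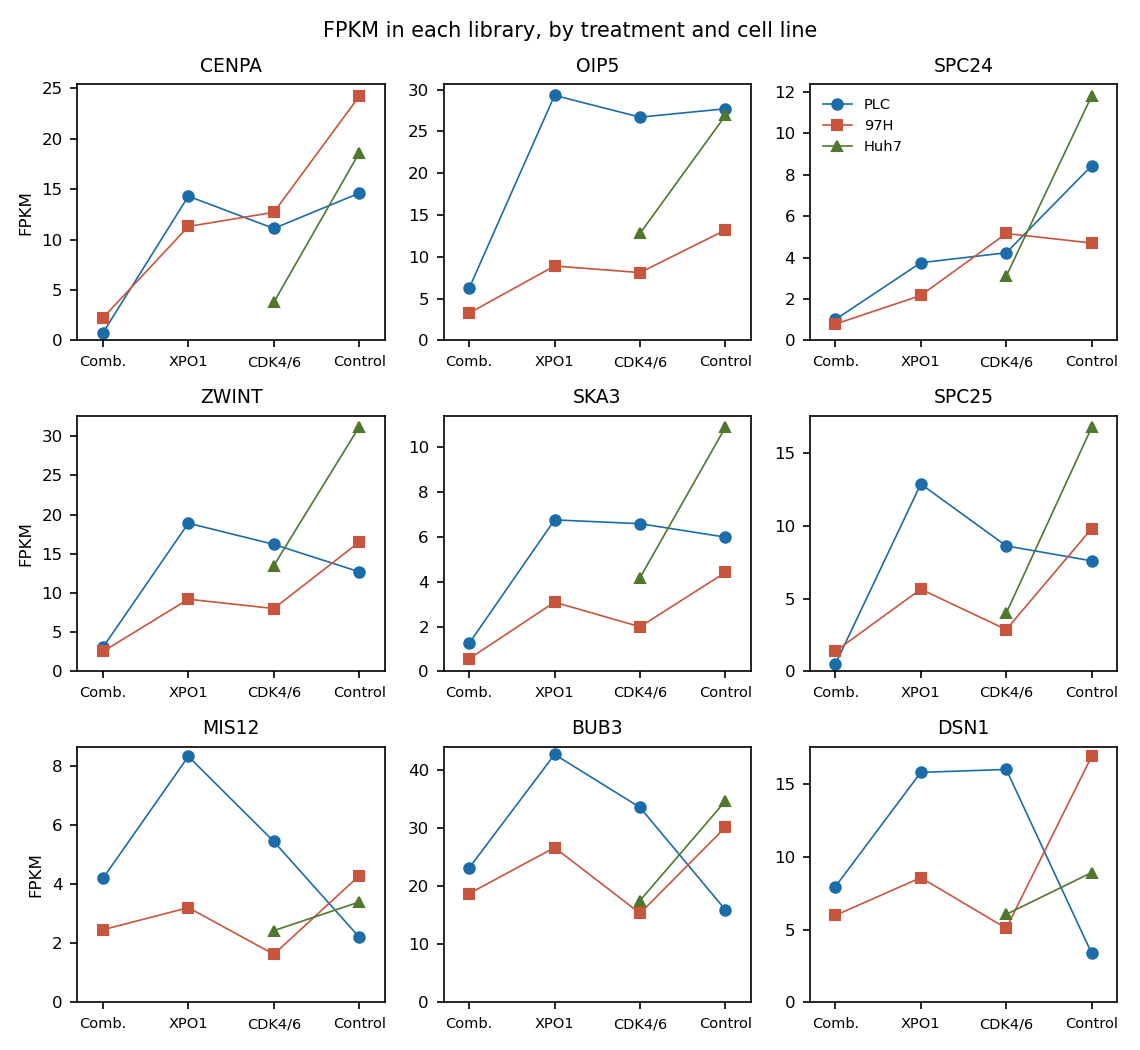
FPKM (vertical axis, from 0) in each library by treatment (Comb., combination) and cell line, for the 6 genes with the smallest p and the 3 with the smallest difference of the combination from control; each point is 1 library. In the first 6 panels both combination points lie below the controls, and in MIS12, BUB3 and DSN1 the PLC control is the lowest PLC library.

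The number of calls moved with the processing more than the differences did. The number of called genes among the 32 was 18 after GC and length trends were removed, when 614 of all tested genes were called, 8 after median ratio scaling (133 of all tested genes), 6 after quantile normalization (140) and 9 in a fit of all 10 libraries (261). In each of these 4 fits more of all tested genes were called than the 83 as deposited. The median difference stayed between -1.36 and -1.19 in these 4 fits. The 18 genes included all 4 of the NDC80 complex, BUB1, BUB1B, MAD2L1 and TTK, but none of the MIS12 complex. Without the 97H control 2 genes were called, CENPA and CENPV, with 166 of all tested genes, and the median was -1.01, while without the PLC control it was -1.65 with no call in the set or among all tested genes.

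A wider list of 30 other kinetochore and checkpoint genes and a list of 11 proliferation genes also held genes that fell with the combination. Both lists were chosen with earlier results of these data known. Of the 26 tested genes of the wider list, 5 were called as lower and none as higher, with a median of -0.71, where 0.487% of all tested genes were called as lower. An unadjusted p under 0.05 as lower was found in 10 of the 26, against 6.07% of all tested genes. The called genes were BIRC5 (-3.64, SE 0.37), CDCA8 (-2.36, SE 0.33) and AURKB (-2.59, SE 0.38) of the chromosomal passenger complex, the mitotic kinase gene PLK1 (-3.27, SE 0.33) and the microtubule depolymerase gene KIF2C (-3.01, SE 0.39). Each had an adjusted p of at most 0.0343. Of the 10 tested proliferation genes, 6 were called as lower, against the same 0.487%, with a median of -2.16. They include MYBL2 (-3.41, SE 0.36, adjusted p = 0.0176) and FOXM1 (-2.97, SE 0.37, adjusted p = 0.0228), transcription factors of the G2 and mitosis genes, and CCNB1 (-2.22, SE 0.32, adjusted p = 0.0321), cyclin B1. The proliferation genes summed to 100 FPKM in PLC and 108 FPKM in 97H under the combination, against 528 FPKM in PLC and 474 FPKM in 97H in the controls. The part of this change in that of the 37 genes was not tested. The 4 leukocyte markers summed to 218 FPKM in PLC and 82.1 FPKM in 97H under the combination, against 40.5 FPKM in PLC and 49 FPKM in 97H in the controls, through CD68 and LYZ, while PTPRC and CD3E were at or near 0. CD68 and LYZ were not called, but both had an unadjusted p under 0.05 as higher (median difference 1.48), where 6.35% of all tested genes had. The same held for both tested fibroblast genes of 4, COL1A1 and LUM (median 1.23), for 2 of the 4 bile duct genes and for 2 of the 11 hepatocyte genes. None of them was called. The median difference was 0.88 over all 4 bile duct genes and 0.49 over all 11 hepatocyte genes. The fibroblast genes summed to 0.28 FPKM in PLC and 30.7 FPKM in 97H under the combination, against 0.122 FPKM in PLC and 3.58 FPKM in 97H in the controls. The bile duct genes summed to 18.1 FPKM in PLC and 673 FPKM in 97H, against 14.5 FPKM in PLC and 486 FPKM in 97H, and the hepatocyte genes to 4620 FPKM in PLC and 6840 FPKM in 97H, against 3797 FPKM in PLC and 2963 FPKM in 97H. The 4 endothelial genes summed to 0.0499 FPKM in PLC and 4.38 FPKM in 97H, against 0.0339 FPKM in PLC and 4.94 FPKM in 97H. In 97H, PECAM1 was at 4.22 FPKM under the combination and 3.23 FPKM in the control, and KDR at 0.121 and 1.62 FPKM. VWF was at 0.0324 FPKM or less in these combination libraries. The part of these marker genes in the differences of the 37 genes was not tested.

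**Figure D3:**
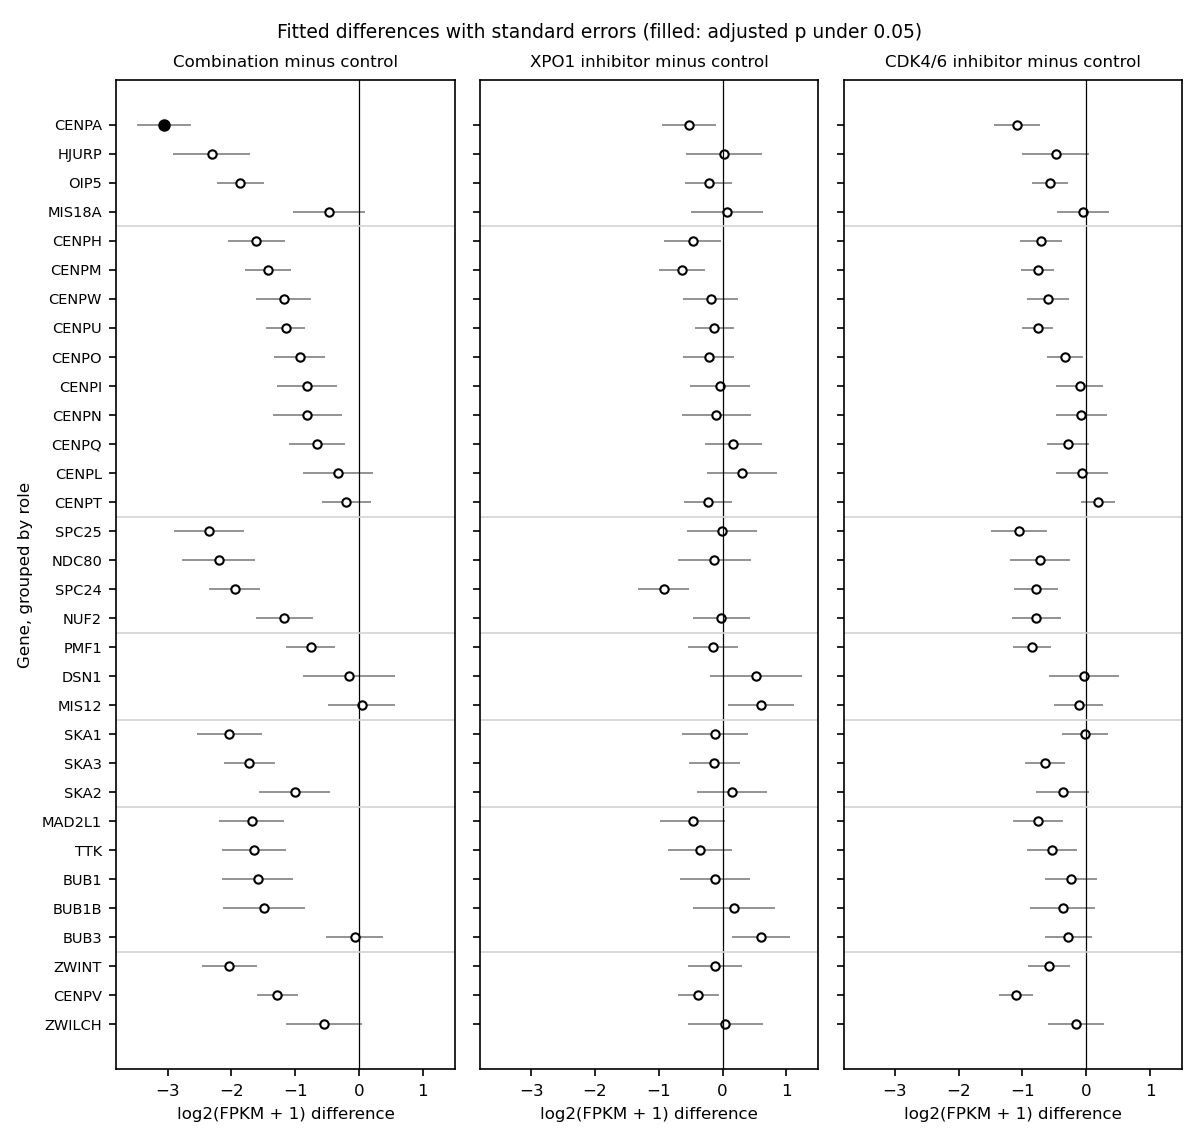
Fitted differences of log2(FPKM + 1) from control (horizontal axis, points) with their standard errors (bars) for the 32 tested genes, by role, under the combination, the XPO1 inhibitor and the CDK4/6 inhibitor; a filled point has an adjusted p under 0.05. CENPA at -3.06 under the combination is the only filled point.

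With the XPO1 inhibitor alone the 2 lines differed, and no gene of the 32 was called, as none of all 10477 tested genes was (0%). At an unadjusted p under 0.05 limma found 1 gene of the set, SPC24, and 258 of all tested genes, 70 of them lower (0.668%). SPC24 stood at 3.75 FPKM in PLC and 2.17 FPKM in 97H, against 8.43 FPKM in PLC, 4.7 FPKM in 97H and 11.8 FPKM in Huh7 in the controls. Both treated libraries lay below all controls, and the difference was -0.92 (SE 0.40, adjusted p = 0.968). The next by p were CENPM, a network subunit (-0.63, SE 0.36), BUB3 (0.60, SE 0.45), CENPA (-0.53, SE 0.42), CENPV (-0.38, SE 0.32) and MIS12 (0.60, SE 0.52), which did not pass. In PLC, 23 of the 32 genes were higher than in the control with a median difference of 0.57, and in 97H, 30 were lower with a median of -0.71. The same 23 were higher in PLC and lower in 97H, against 35.7% of all tested genes. After GC and length trends were removed, the medians were -0.14 in PLC and -0.51 in 97H. Of the 32 genes, 13 were then higher and 19 lower in PLC, and 30 were lower in 97H. The median of the fitted differences, -0.12, depended on single libraries. It was -0.49 without the PLC control and -0.33 without the PLC library with the inhibitor, but 0.37 without the 97H control and 0.14 without the 97H library with the inhibitor, with no call in any of these fits.

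With the CDK4/6 inhibitor alone, PLC again differed in direction from the other lines in the deposited values. No gene of the set or of all tested genes was called (0%). At an unadjusted p under 0.05, 7 of the 32 were lower and none higher, against 4.23% and 4.57% of all tested genes, 922 genes in all. CENPV stood at 25.8 FPKM in PLC, 78.8 FPKM in 97H and 37.5 FPKM in Huh7, against 71.5 FPKM in PLC, 103 FPKM in 97H and 107 FPKM in Huh7 in the controls, and its difference was -1.10 (SE 0.26, adjusted p = 0.461). It was lower in every line, although the treated 97H library lay above the PLC control. CENPA was at 11.1 FPKM in PLC, 12.7 FPKM in 97H and 3.78 FPKM in Huh7, against 14.6 FPKM in PLC, 24.2 FPKM in 97H and 18.6 FPKM in Huh7, with no overlap of the groups and a difference of -1.09 (SE 0.36, adjusted p = 0.492). CENPU, of the group of CENP-O, -P, -Q and -U, was at 0.763 FPKM in PLC, 2.84 FPKM in 97H and 0.984 FPKM in Huh7, against 1.34 FPKM, 5.62 FPKM and 3.19 FPKM in the controls of these lines (-0.76, SE 0.24). The levels of CENPU overlapped between the groups, although it was lower within each line. CENPM (-0.76, SE 0.26), PMF1 (-0.85, SE 0.30), SPC25 (-1.05, SE 0.44) and SPC24 (-0.79, SE 0.34) complete the 7.

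Over the 32 genes the median difference under the CDK4/6 inhibitor was -0.51, against 0.03 over all tested genes. By line it was 0.32 in PLC, -0.93 in 97H and -1.05 in Huh7. Removing GC and length trends moved these to -0.33, -0.48 and -0.73. The 22 genes that were higher in PLC were lower in both 97H and Huh7, against 26.4% of all tested genes. With the trends removed, 14 of the 32 were higher and 18 lower in PLC, while 30 were lower in 97H and 27 in Huh7. The 8 that were lower in all 3 lines (10.3% of all tested genes) were CENPA, OIP5, CENPM, CENPO, CENPU, CENPW, PMF1 and CENPV. By role, the checkpoint genes had a median of 1.03 in PLC, with 5 of 5 higher, -1.25 in 97H and -1.12 in Huh7, with 5 of 5 lower in each. BUB1B, for instance, was at 21.3 FPKM in PLC, 5.03 FPKM in 97H and 5.63 FPKM in Huh7 with the inhibitor, against 6.86 FPKM in PLC, 16 FPKM in 97H and 13.5 FPKM in Huh7 in the controls. Removing GC and length trends left BUB1B higher in PLC by 0.69, while MAD2L1 and TTK, at 0.31 and 0.27 before, were at -0.65 and -0.63. The median of the fitted differences was -0.75 without either the PLC control or the PLC library with the CDK4/6 inhibitor, -0.33 without the 97H control and -0.25 without either Huh7 library, with no call in any of these fits.

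**Figure D4:**
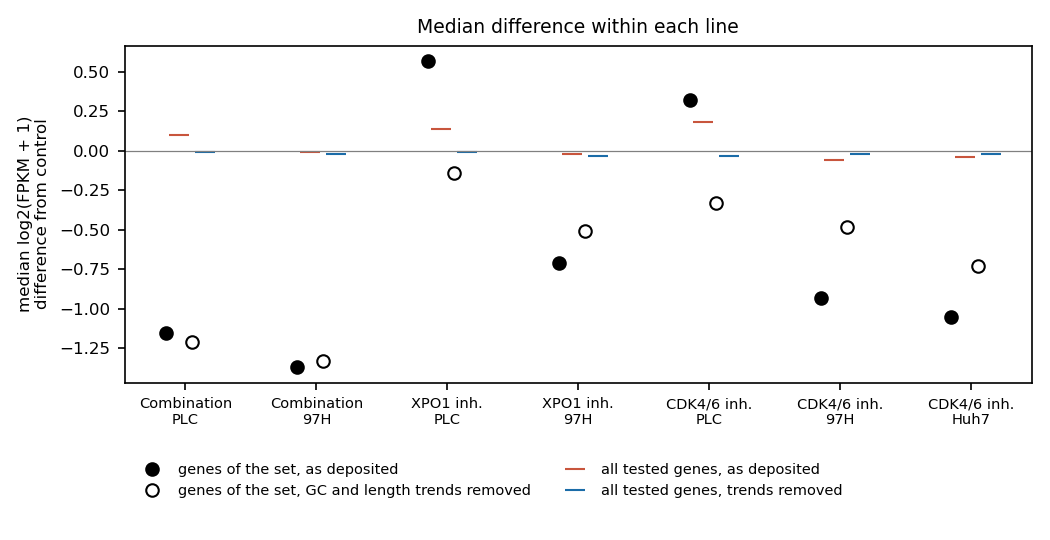
Median difference of log2(FPKM + 1) from the control of the same line for the 32 tested genes (circles) and for all tested genes (dashes), as deposited (filled circles, red dashes) and after removing trends on transcript GC content and length (open circles, blue dashes). Both combination medians are -1.15 or lower either way, while the PLC medians of the single inhibitors, 0.57 and 0.32, are -0.14 and -0.33 after the removal.

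Set against each inhibitor alone, the combination was lower for most of the set, and no gene was called. These comparisons share the combination libraries with each other and with the comparison against control, so their values stand side by side and do not count as separate evidence. Against the CDK4/6 inhibitor, none of all tested genes was called (0%), the median over the 32 genes was -0.93, against -0.01 over all tested genes, and 13 had an unadjusted p under 0.05 as lower, against 1.99%. By line the median was -1.44 in PLC and -0.51 in 97H, and 24 of the 32 were lower in both lines, against 21.7% of all tested genes, while the other 8 were higher in 97H. After GC and length trends were removed, the medians were -0.76 in PLC and -0.97 in 97H, so that the order of the lines turned. CENPA differed by -2.44 (SE 0.42, adjusted p = 0.202), SKA1 by -2.08 (SE 0.51), OIP5 by -1.52 (SE 0.37), SPC24 by -1.58 (SE 0.40), HJURP by -2.39 (SE 0.60) and ZWINT by -1.72 (SE 0.43). HJURP stood at 2.27 FPKM in PLC and 5.03 FPKM in 97H under the combination, against 11.7 FPKM in PLC and 41.3 FPKM in 97H under the CDK4/6 inhibitor. SKA1 stood at 1.43 FPKM in PLC and 1.19 FPKM in 97H, against 10.9 FPKM in PLC and 6.97 FPKM in 97H. In both genes the combination was the lower library in each line.

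Against the XPO1 inhibitor, again with no call among all tested genes (0%), the median was -1.03, against -0.04 over all tested genes, and 18 of the 32 had an unadjusted p under 0.05 as lower, against 2.81%. By line the median was -1.37 in PLC and -0.68 in 97H, and -1.0 in PLC and -0.75 in 97H after GC and length trends were removed. In both lines 31 of the 32 were lower, against 28.3% of all tested genes, and the exception, CENPT, was higher by 0.03 in PLC and 0.04 in 97H. CENPA differed by -2.53 (SE 0.42, adjusted p = 0.178), OIP5 by -1.64 (SE 0.37), ZWINT by -1.91 (SE 0.43), SPC25 by -2.35 (SE 0.55), SKA3 by -1.59 (SE 0.40) and HJURP by -2.34 (SE 0.60). Once GC and length trends were removed, 4 of the 32 were called against the CDK4/6 inhibitor and 6 against the XPO1 inhibitor, where 53 and 66 of all tested genes were.

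The interaction is the combination minus both single inhibitors plus the control on the log2 scale, and lies below 0 where the combination is lower than the sum of the single differences. None of the 32 or of all tested genes was called (0%), and 5 of the 32 had an unadjusted p under 0.05, all below 0, against 0.515% of all tested genes. The values were -1.91 (SE 0.59) for CENPA, -2.41 (SE 0.85) for HJURP, -1.96 (SE 0.72) for SKA1, -1.60 (SE 0.61) for ZWINT and -1.30 (SE 0.53) for OIP5, each with an adjusted p of 1, and -1.81 (SE 0.81) for NDC80. All 6 were below 0 in both lines, CENPA at -2.76 in PLC and -1.06 in 97H, and NDC80 at -3.57 in PLC and -0.05 in 97H. The median of the 32 was -0.72, against -0.11 over all tested genes. Leaving out 1 library moved it between -0.39 (without the PLC library with the CDK4/6 inhibitor) and -1.45 (without the 97H control), with -0.4 without the PLC control and -1.33 without the 97H library with the CDK4/6 inhibitor. It was -1.96 in PLC and 0.02 in 97H, and -0.71 in PLC and -0.45 in 97H after GC and length trends were removed. In both lines 11 of the 32 were below 0, against 15.6% of all tested genes.

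The level of 9 of the 32 genes differed between PLC and 97H over the 4 treatments, a smaller share than the 44.3% of all tested genes that were called. The 4 differently treated libraries of a line served as its replicates. The p-values therefore compare the cultures sequenced here and do not measure how a line varies between repeated cultures. HJURP was lower in PLC in every treatment, at 2.27 FPKM with the combination, 11.7 FPKM with the XPO1 inhibitor, 11.7 FPKM with the CDK4/6 inhibitor and 4.96 FPKM in the control, against 5.03, 38.8, 41.3 and 80.9 FPKM in 97H in the same order (-2.01, SE 0.42, adjusted p = 0.00476). PMF1, of the MIS12 complex, was at 14.2, 32.2, 15.2 and 40.1 FPKM in PLC, against 69.6, 74.4, 70.7 and 74 FPKM in 97H (-1.60, SE 0.27, adjusted p = 0.00146). The 97H libraries hardly differed from each other, while those of PLC spread widely and stayed below them. CENPU (-1.33, SE 0.22) and CENPV (-1.13, SE 0.23) were lower in PLC too. CENPO, a partner of CENPU in the network, went the other way, at 14, 18.9, 15 and 19.9 FPKM in PLC, against 2.37, 5.75, 6.61 and 7.75 FPKM in 97H (1.51, SE 0.28, adjusted p = 0.00236). ZWILCH (1.44, SE 0.42), of the Rod-Zwilch-ZW10 complex, OIP5 (1.25, SE 0.26), the checkpoint kinase gene TTK (1.12, SE 0.35) and SKA3 (0.79, SE 0.28) were also higher in PLC. These values sit on a median of 0.26 over all tested genes, which moved by -0.17 under quantile normalization and by -0.25 under median ratio scaling, and none of the 9 changed sign under either. Without the PLC control or the 97H control 16 of the 32 were called, with 5639 and 5641 of all tested genes.

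**Figure D5:**
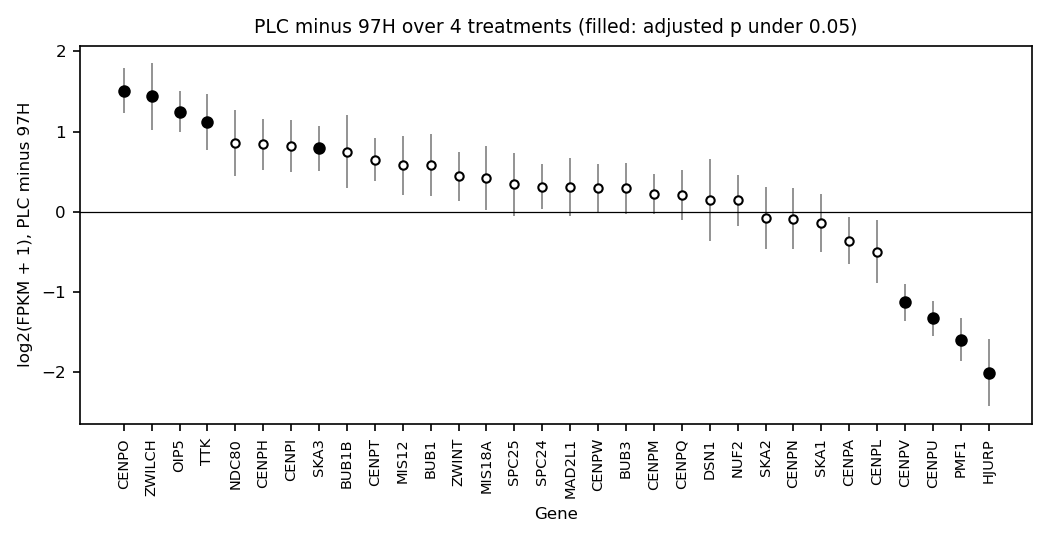
PLC minus 97H in log2(FPKM + 1) over the 4 treatments (vertical axis, points) with standard errors (bars), for the 32 tested genes in order of the difference; a filled point has an adjusted p under 0.05. CENPO is the highest at 1.51 and HJURP the lowest at -2.01.

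In Huh7, set against the mean of PLC and 97H, 2 of the 32 genes were called, both higher, where 28.7% of all tested genes were called. Huh7 enters with 2 differently treated libraries, so this too compares the cultures sequenced here and not repeated cultures of each line. SKA1 stood at 23.1 FPKM with the CDK4/6 inhibitor and 25.5 FPKM in the control in Huh7, against 10.9 and 4.89 FPKM in PLC and 6.97 and 14.1 FPKM in 97H (1.40, SE 0.38, adjusted p = 0.021). Both Huh7 libraries lay above all others. CENPT stood at 20.8 and 14.2 FPKM in Huh7, against 10.3 and 13.4 FPKM in PLC and 7.55 and 5.66 FPKM in 97H (0.89, SE 0.28, adjusted p = 0.0387). MIS18A (1.0, SE 0.44), SKA2 (0.91, SE 0.44), CENPM (-0.55, SE 0.28) and ZWILCH (0.90, SE 0.47) followed without passing. The call of SKA1 was lost without the Huh7 control (adjusted p = 0.23), the Huh7 library with the CDK4/6 inhibitor (0.184) or that of 97H (0.0705), and with no filter on low genes (0.0512). That of CENPT was lost in 9 of the 10 fits without 1 library, with median ratio scaling (0.103) and in the control and CDK4/6 inhibitor libraries alone (0.123). Without the PLC control 4 of the 32 were called.

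Exons of 10 of the 37 genes overlap those of another gene in GENCODE 29, and whether counting used the strand is not given in the sources used here. BUB1B and PMF1 share a strand with the readthrough genes BUB1B-PAK6 and PMF1-BGLAP. OIP5 lies opposite OIP5-AS1, CENPT opposite NUTF2, CENPU opposite PRIMPOL and CENPO opposite ADCY3 and PTRHD1, and CENPN, CENPP, MAD2L1 and ZWILCH also overlap genes on the other strand. For BUB1B and PMF1, reads of the shared exons cannot be assigned by strand, and for the other 8 only a count by strand would separate the partner's reads. CENPA, SPC24, SPC25, ZWINT and SKA3 have no such overlap.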

How the data were processed

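Total RNA of the liver cancer lines was sequenced in 10 libraries. Per the submitters' processing notes, base calling used CASAVA 1.8.2, alignment to GRCh38 used STAR 2.4.2g1, and featureCounts (Subread) gave the counts. The deposited values are FPKM for 20030 genes, computed by the authors in a way not given in the sources used here, with no named scaling between libraries. In 27 entries a gene symbol turned into a date was restored.

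R 4.3.3 and limma 3.58.1 were used for all fits (lmFit, then eBayes with a trend, two-sided). They ran on log2(FPKM + 1) of 10477 genes, those averaging 1 FPKM or more across the libraries, and p was adjusted by Benjamini-Hochberg over all of them. Cell line was a block, which pairs the libraries: within PLC, 97H and Huh7 the control library and the CDK4/6 inhibitor library deviated together from the means of their groups, with correlations over genes of 0.665, 0.818 and 0.901. Comparisons with the combination or the XPO1 inhibitor, and PLC against 97H, used only the 8 PLC and 97H libraries, with 3 residual degrees of freedom, and the CDK4/6 inhibitor against control and Huh7 against the others used all 10, with 4. PLC against 97H and Huh7 against the others had treatment as a block. The standard errors pool the spread over all treatments of a fit. Trends on GC content and length were natural splines with 5 degrees of freedom on the longest GENCODE 29 transcript, available for 97.1% of the entries. The fits were tested on simulated data, made of gene means per line plus independent noise, with shifts added to some genes. That simulation left out the GC trends between libraries, so it checks the code and not the error rates in these data. No count model was run, since the files hold no counts.

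The genes, their roles and the lists were chosen with earlier results of these data known. The text names every called gene of the set, and where fewer than 6 were called the genes with the smallest p up to 6. For the combination against control it adds the 3 smallest differences, and from each list the 3 smallest p. CENPV under the combination, BUB1B, MAD2L1 and TTK under the CDK4/6 inhibitor, SPC24 in the same comparison and the other genes named by role were added beside that rule after their values were seen. Alternatives changed the pseudocount, filter, block, scaling, prior variance, GC content and length, or libraries, 1 at a time.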

Additional observations from a re-analysis of the deposited data

Results flagged for a closer look

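Opposite differences in PLC and 97H singled out 4 values, with at least 0.5 on the log2 scale in each direction. The difference between the lines was not tested in any of them, since each line has 1 library per treatment. For the combination against control, MIS12 differed by 0.70 in PLC and -0.61 in 97H, BUB3 by 0.51 in PLC and -0.66 in 97H, and DSN1 by 1.03 in PLC and -1.36 in 97H. For the XPO1 inhibitor against control, the median over the 32 tested genes was 0.57 in PLC and -0.71 in 97H. After trends on GC content and length were removed, the PLC values were 0.41 for MIS12, -0.04 for BUB3 and 0.73 for DSN1, and those of 97H were -0.47, -0.49 and -1.21.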

How the results depend on the processing

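For the combination against control, the number of called genes of the set was 1, with 83 of all tested genes. It was 3 with a pseudocount of 0.1 (114 of all, median difference -1.79), 0 with no filter on low genes (1 of all), 6 with quantile normalization (140), 8 with median ratio scaling (133), 18 without GC and length trends (614) and 9 with all 10 libraries (261). Leaving out 1 library gave 0 to 2 calls (0 to 166 of all) and medians of -1.65 to -1.01. Without the replicate block, that is without the pairing by cell line, 0 were called in the set or among all. No other count left 0 in the comparisons of treatments, except that removing GC and length trends gave 4 calls for the combination against the CDK4/6 inhibitor and 6 against the XPO1 inhibitor. For PLC against 97H, 14 were called without these trends (6107 of all) and 6 to 16 without 1 library (3205 to 5641), against 9 (4645). For Huh7 it was 1 with no filter (4121 of all), with median ratio scaling (3014) or with the control and CDK4/6 inhibitor libraries alone (2193), 5 without the trends (4732) and 0 to 4 without 1 library (998 to 3593), against 2 (3012).

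The sign of MIS12 under the combination turned under quantile normalization (-0.12), median ratio scaling (-0.03), removal of the trends (-0.03), all 10 libraries (-0.02) and without the PLC control (-0.82, highest value without 1 library 0.91). That of BUB3 and DSN1 turned without the 97H control, with ranges without 1 library of -0.85 to 0.71 and -1.62 to 1.3. Under the XPO1 inhibitor BUB3, CENPV and MIS12 turned without the PLC control, with ranges of -0.18 to 1.38, -0.78 to 0.03 and -0.26 to 1.47. The cause was not tested. Of 806 values of single genes under alternatives, 719 kept sign and side of the threshold, 41 lost a call, 36 gained one and 10 changed sign. A fit without 1 library can leave a group with 1 library, assumed to vary like the others. Depth is unknown, and FPKM near 0 cannot be told from 0.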
